A study of Caenorhabditis elegans with 6 samples.

Results

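Caenopores are small proteins of *C. elegans* with the saposin fold, a bundle of helices held together by disulfide bonds, and they are related to the amoebapores with which amoebae kill engulfed bacteria. Several of them insert into bacterial membranes and make them leaky, and in the worm intestine they take part in the killing of the bacteria that serve as food. Other proteins with the same fold act in lysosomes, where saposins help enzymes reach membrane lipids. The genes examined here are the 10 saposin-like (*spp*) genes *spp-1*, *spp-2*, *spp-3*, *spp-5*, *spp-8*, *spp-9*, *spp-10*, *spp-14*, *spp-17* and *spp-18*, taken from a list of symbols and matched to sequence names through a WBcel235 gene table. They are 10 of 26 *spp* genes and of 17682 genes in the files.

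The libraries came from TJ1060 hermaphrodites, which are sterile when raised at 25°C. Both groups had the same genotype, *fem-15(b26);spe-9(hc88)*, and differed in the bacteria fed from day 1 of adulthood. Bacteria made *unc-62* double-stranded RNA in the *unc-62* RNAi group (3 libraries) and held the empty vector in the control RNAi group (3 libraries). mRNA of whole worms was taken on day 4 of adulthood, after 3 days at 20°C, and sequenced from the 3′ ends of transcripts. UNC-62 is the worm relative of Homothorax and Meis, cofactors of Hox proteins, and RNAi by feeding reaches many tissues of the adult at once. The comparison asks which transcripts depend on *unc-62* in the adult.

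The deposited values are reads of a gene per 1000000 uniquely mapped reads of its library (RPM), and 15188765 to 22868980 uniquely mapped reads lie behind each library. A gene was tested when it had at least 10 reads in all 3 libraries of either group, which 7333 genes and 9 of the 10 saposin-like genes did. The targeted gene *unc-62* had 0.993, 1.71 and 1.35 RPM upon *unc-62* RNAi, against 1.78, 1.81 and 1.21 RPM in control RNAi. Its groups overlapped (log2 fold change -0.28, adjusted p = 0.739 by limma), so no lower level of *unc-62* mRNA was detectable at 17 to 39 reads per library, and the treatment of a library rests on its label. *unc-62* RNAi libraries were sequenced in one lane and control RNAi libraries in another, so lane and treatment cannot be told apart. Fold changes of all tested genes spread more widely in replicate 3 (SD of 1.23 in log2) than in replicate 1 (0.662) or replicate 2 (0.70). In whole worms, fewer cells of a type and less RNA per cell cannot be told apart.

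The saposin-like genes differed widely in level. *spp-14* was the most abundant in both groups, at 4475 ± 1243 RPM upon *unc-62* RNAi and 2617 ± 458 RPM in control RNAi (SD, n = 3 each). It ranked 74th of the 7333 tested genes upon *unc-62* RNAi and 102nd in control RNAi. After it in control RNAi came *spp-1* (572 RPM), *spp-17* (497 RPM) and *spp-8* (263 RPM), of which *spp-1* and *spp-17* overlapped between libraries while *spp-17* and *spp-8* did not. *spp-5* followed at 50.9 RPM, and *spp-3*, *spp-10*, *spp-2* and *spp-18* averaged between 4.16 and 9.89 RPM, each overlapping its neighbour in this order. *spp-9* was nearly absent, with 1, 2 and 1 reads upon *unc-62* RNAi and 0, 1 and 1 reads in control RNAi. The plot of RPM by library shows these levels on a log axis.

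**Figure D1:**
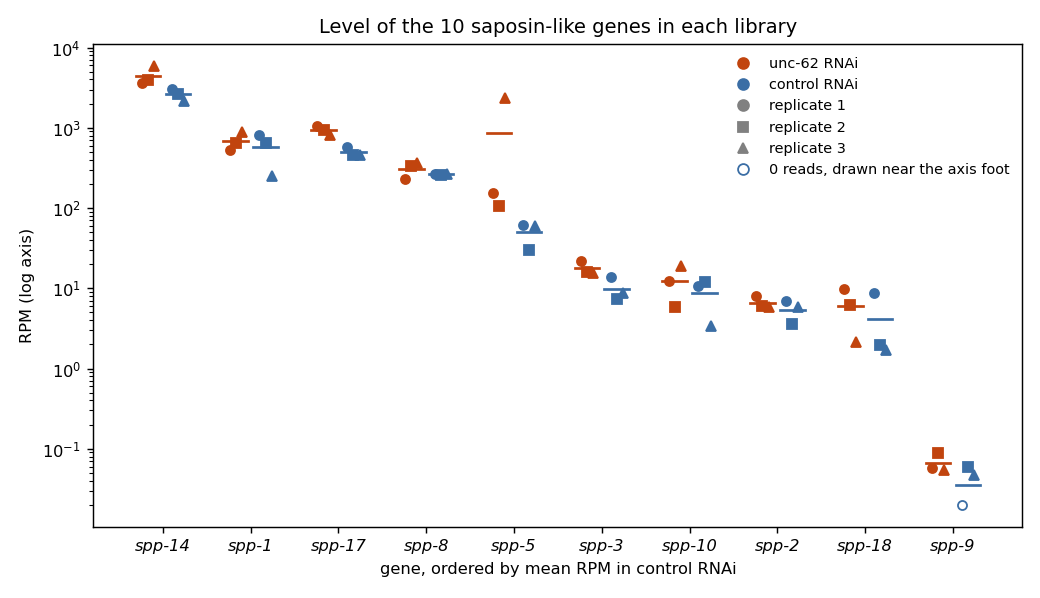
RPM of the 10 saposin-like genes on a log axis, with *unc-62* RNAi libraries in orange on the left and control RNAi libraries in blue on the right of each gene, symbols for replicates and bars for the mean of 3 libraries. *spp-14* lies highest in both groups, and *spp-5* in *unc-62* RNAi replicate 3 (2358 RPM) lies far above its other 5 values.

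Most of the encoded proteins are short. In the WBcel235 annotation 8 of the 10 have 100 to 126 codons, about the size of a single saposin domain with a signal peptide, while *spp-8* has 402 and *spp-10* has 429. Expressed as RPM per kb of coding length, *spp-14* still came first in control RNAi at 8469.5, ahead of *spp-1* at 1764 and *spp-17* at 1592. On that scale *spp-8* (218) and *spp-5* (165) came next, and the order of the lowest genes became *spp-3*, *spp-2*, *spp-18* and *spp-10*. Reads of a 3′-end library do not scale with transcript length as reads along a whole transcript would, so both scales are given.

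As a group the 10 genes held 0.565%, 0.596% and 1.04% of all uniquely mapped reads upon *unc-62* RNAi, against 0.485%, 0.402% and 0.322% in control RNAi. Each *unc-62* RNAi library lay above each control RNAi library, and the means were 0.732% ± 0.263 upon *unc-62* RNAi and 0.403% ± 0.0815 in control RNAi (SD, n = 3 each). The 95% Wilson intervals of single libraries, which cover counting error only, were at most as wide as 1.031% to 1.040% in *unc-62* RNAi replicate 3. *spp-14* alone made up 57.0% to 65.2% of these reads upon *unc-62* RNAi and 63.6% to 67.3% in control RNAi. Without *spp-5* the share was still 0.550%, 0.586% and 0.799% upon *unc-62* RNAi, against 0.479%, 0.399% and 0.316% in control RNAi. No test was made of this sum.

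Every one of the 9 tested genes had a log2 fold change above 0, where 53.3% of all tested genes did, and the median was 0.68 over the 9 genes and 0.03 over all tested genes. None of the 9 passed an adjusted p of 0.1 in limma with Benjamini-Hochberg adjustment over all tested genes, where 0.491% of tested genes were called as increased. At an unadjusted p under 0.05 limma counted 4 of the 9, all higher upon *unc-62* RNAi (*spp-3*, *spp-5*, *spp-14* and *spp-17*), against 4.69% of tested genes. The same 4 had every *unc-62* RNAi library above every control RNAi library, as did 6.44% of tested genes. In all 3 replicates 6 of the 9 were higher upon *unc-62* RNAi, against 15.8% of tested genes.

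Other tests drew the line elsewhere. edgeR's quasi-likelihood test on the recovered reads called 0 of the 9 at an adjusted p of 0.1, where 0.518% of tested genes were called as increased, and counted 4 at an unadjusted p under 0.05, where 4.94% of tested genes were. DESeq2 called 2, *spp-5* and *spp-17*, where 1.39% of tested genes were called as increased, and counted 3 at an unadjusted p under 0.05, where 3.30% were. Rank products of the fold changes within replicates, the study's own method, called *spp-5* alone, where 0.914% of tested genes were called as increased. limma with no replicate block called *spp-17* alone, where 0.764% were. With both libraries of replicate 3 left out limma called 5 (*spp-3*, *spp-5*, *spp-14*, *spp-17* and *spp-18*), where 5.78% of tested genes were called as increased, and with replicate 1 or replicate 2 left out it called 0 genes of any kind. Without replicate 1 it then counted 3 of the 9 as higher at an unadjusted p under 0.05, where 2.73% of tested genes were, and without replicate 2 it counted 2, where 3.70% were. No test called any of the 9 as decreased.

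**Figure D2:**
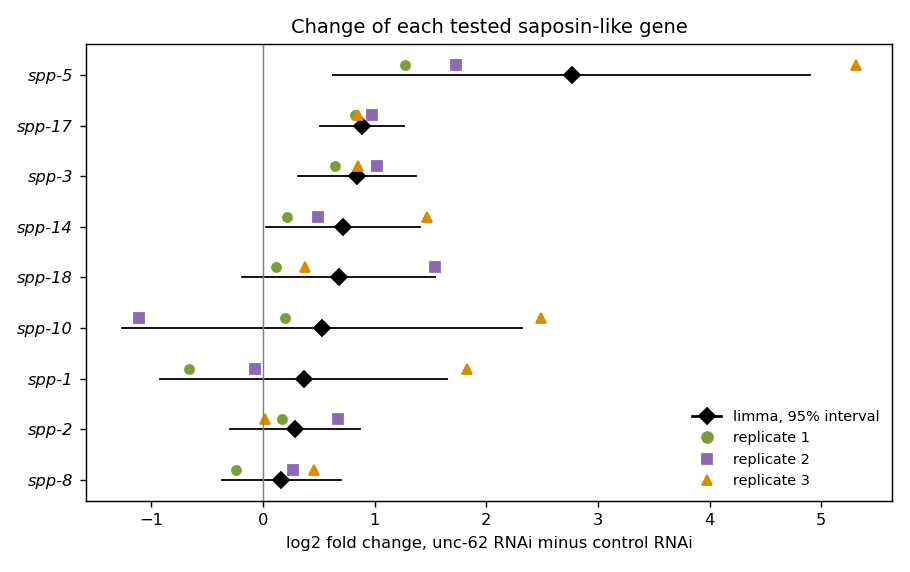
Log2 fold change (*unc-62* RNAi minus control RNAi) of the 9 tested genes, with black diamonds and lines for the limma estimate and its 95% interval and coloured symbols for the fold change within each replicate. The 3 replicates of *spp-17* lie close together between 0.82 and 0.98, while those of *spp-5* lie between 1.27 and 5.31.

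*spp-5* encodes caenopore-5, a pore-forming protein that permeabilizes bacterial membranes and helps the worm kill *E. coli* in its gut. It had 153, 106 and 2358 RPM upon *unc-62* RNAi (2625, 2423 and 43620 reads), against 62.2, 30.1 and 60.4 RPM in control RNAi (944, 515 and 1296 reads). All 3 *unc-62* RNAi libraries were above the control libraries, and *unc-62* RNAi replicate 3 stood far above the other 5. The log2 fold change was 2.77 (standard error 0.83, 95% interval 0.63 to 4.90, adjusted p = 0.25 by limma), made of 1.27, 1.73 and 5.31 in replicates 1, 2 and 3. Its fold change ranked 167th, 62nd and 39th of 7333 in the 3 replicates, which rank products called at 2.04% false positives. edgeR gave an adjusted p of 0.302 and DESeq2 one of 0.0224. With both libraries of replicate 3 left out the log2 fold change was 1.52, and limma, then with 1 residual degree of freedom, gave an adjusted p of 4.5e-08. Every replicate had a fold change above 0, and its size moved with *unc-62* RNAi replicate 3.

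*spp-1* encodes another antibacterial pore-forming protein, whose transcript depends on the insulin-regulated factor DAF-16 in long-lived mutants. It had 528, 655 and 880 RPM upon *unc-62* RNAi (9049, 14975 and 16278 reads), against 815, 649 and 251 RPM in control RNAi (12384, 11096 and 5380 reads). The groups overlapped, with the lowest value in control replicate 3. The log2 fold change was 0.37 (standard error 0.50, 95% interval -0.92 to 1.65, adjusted p = 0.806 by limma). Within replicates 1, 2 and 3 it was -0.66, -0.07 and 1.83, and it turned to -0.34 when replicate 3 was left out and to -0.10 when control replicate 3 alone was left out with no replicate block. The interval covers both signs, so neither a higher nor a lower level was resolved for this gene.

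*spp-3* encodes a protein with antimicrobial and pore-forming activity. It had 21.8, 15.8 and 15.5 RPM upon *unc-62* RNAi (374, 362 and 286 reads), against 13.7, 7.31 and 8.67 RPM in control RNAi (208, 125 and 186 reads). The groups did not overlap, and the replicates were alike, with log2 fold changes of 0.64, 1.02 and 0.85. The estimate was 0.84 (standard error 0.21, 95% interval 0.31 to 1.37), with an unadjusted p of 0.00966 and an adjusted p of 0.182 by limma.

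*spp-14* and *spp-17* are short saposin-like genes for which no role is stated here. *spp-14* had 3636, 3886 and 5903 RPM upon *unc-62* RNAi, against 3082, 2604 and 2166 RPM in control RNAi. The groups did not overlap, and *unc-62* RNAi replicate 3 was again the highest. The log2 fold change of *spp-14* was 0.72 (standard error 0.27, 95% interval 0.03 to 1.41, adjusted p = 0.346 by limma), with 0.21, 0.49 and 1.47 in replicates 1, 2 and 3, and it was 0.37 with replicate 3 left out. These values rest on 62273, 88865 and 109223 reads upon *unc-62* RNAi, against 46809, 44527 and 46483 reads in control RNAi, so the spread between replicates and not the depth sets the error.

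*spp-17* had 1054, 951 and 806 RPM upon *unc-62* RNAi (18051, 21747 and 14905 reads), against 584, 453 and 453 RPM in control RNAi (8864, 7745 and 9728 reads). It was the steadiest of the 9, with log2 fold changes of 0.82, 0.98 and 0.85 in the 3 replicates and no overlap between groups. Its estimate of 0.89 (standard error 0.15, 95% interval 0.51 to 1.26) had an unadjusted p of 0.00185 and an adjusted p of 0.116 by limma, just outside the threshold of 0.1. The adjusted p was 0.105 by edgeR, 0.0984 by DESeq2 and 0.0728 by limma with no replicate block. Unlike *spp-5* and *spp-14*, *spp-17* was not highest in *unc-62* RNAi replicate 3, which held 0.764 times the level of the highest other library.

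*spp-8* and *spp-10* encode the long members, and *spp-10* is related to mammalian prosaposin, the precursor of the lysosomal saposins. *spp-8* had 228, 330.2 and 364 RPM upon *unc-62* RNAi, against 265, 257 and 268 RPM in control RNAi. The log2 fold change of *spp-8* was 0.16 (standard error 0.21, 95% interval -0.37 to 0.70, adjusted p = 0.794 by limma). The groups overlapped, the control values being nearly equal. *spp-10* had 12.5, 5.90 and 18.8 RPM upon *unc-62* RNAi (214, 135 and 347 reads), against 10.7, 12 and 3.35 RPM in control RNAi (162, 206 and 72 reads). The log2 fold change of *spp-10* was 0.53 (standard error 0.69, 95% interval -1.26 to 2.32, adjusted p = 0.804 by limma). Its replicates went in different directions (0.20, -1.11 and 2.49), and without replicate 3 the estimate was -0.43.

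*spp-18* and *spp-2* were covered by few reads. *spp-18* had 9.81, 6.21 and 2.16 RPM upon *unc-62* RNAi (at least 40 reads), against 8.82, 1.99 and 1.68 RPM in control RNAi (at least 34 reads) (log2 fold change 0.68, 95% interval -0.19 to 1.54, adjusted p = 0.50 by limma). *spp-2* had 136, 138 and 107 reads upon *unc-62* RNAi, against 105, 61 and 124 reads in control RNAi (log2 fold change 0.29, 95% interval -0.30 to 0.87, adjusted p = 0.682 by limma). The groups of both genes overlapped. *spp-9*, a gene repressed by the TGF-beta ligand DBL-1 and used as a reporter of that pathway, had 0 to 2 reads per library and was not tested.

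*spp-5* was not the only saposin-like gene to stand out in *unc-62* RNAi replicate 3. Of the 7333 tested genes, 10 had in that library at least 10 reads and at least 10 times the RPM of the highest other library, and no gene did so in any other library. *spp-12*, whose protein is an antimicrobial made in pharyngeal neurons, led these 10 at 28.3 times, and *spp-5* came second at 15.4 times. *spp-12* had 10, 12 and 306 reads upon *unc-62* RNAi, against 4, 7 and 8 reads in control RNAi. The summed markers of neurons in *unc-62* RNAi replicate 3 were at 32.1 RPM, where all libraries ran between 19.5 and 41.9 RPM. Most of the 32.1 RPM was *egl-21* (21.7 RPM), and only 3 of the 7 markers had enough reads to be tested. Whether neurons have a part in the level of *spp-12* was not tested. The other 8 were F22H10.3, Y66D12A.21, Y71H2B.4, *clec-61*, *set-23*, C50B6.7, *trpp-5* and *immp-1*, at 10.3 to 14 times. Among the other tested saposin-like genes of the list, *unc-62* RNAi replicate 3 was between 0.220 times (*spp-18*) and 1.52 times (*spp-14*) the highest other library. This criterion was chosen after the value of *spp-5* was seen.

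**Figure D3:**
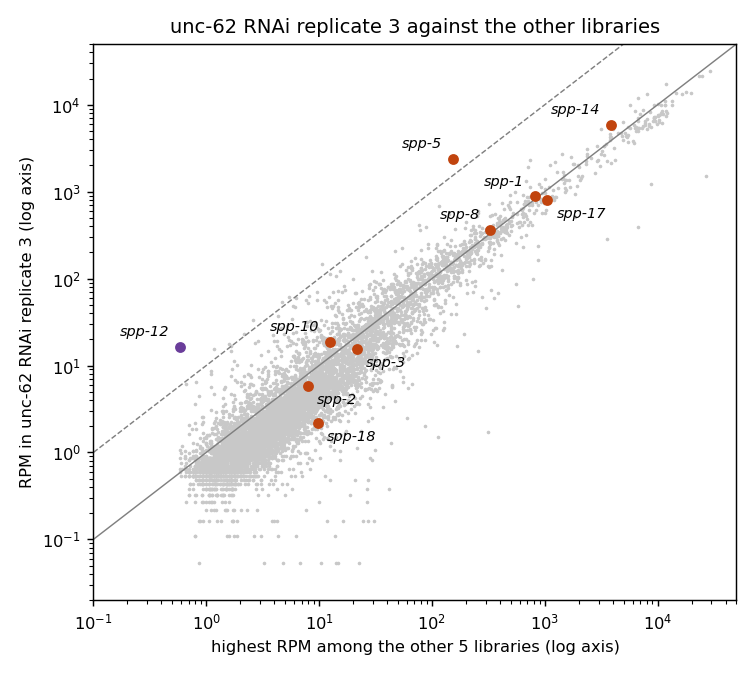
RPM of the tested genes in *unc-62* RNAi replicate 3 (vertical log axis) against the highest RPM among the other 5 libraries (horizontal log axis), with the 9 tested genes in orange, *spp-12* in purple and all tested genes above 0 in grey. The solid line marks equal values and the dashed line 10 times as much, and *spp-5* and *spp-12* lie above the dashed line.

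Several of the genes lie side by side on the chromosomes. In the WBcel235 annotation, a later one than the WS215 release the authors mapped to, *spp-3*, *spp-2*, *spp-6*, *spp-4* and *spp-5* are neighbours in this order on chromosome X, all on one strand but *spp-6*. Their log2 fold changes were 0.84 for *spp-3*, 0.29 for *spp-2*, 1.12 for *spp-4* and 2.77 for *spp-5*, and *spp-6* had 1 read over all 6 libraries. *spp-4*, which is not among the 10, had 3.33, 2.36 and 5.51 RPM upon *unc-62* RNAi, against 1.45, 1.64 and 1.58 RPM in control RNAi, with no overlap (adjusted p = 0.227 by limma). In control RNAi the 4 tested genes of this cluster ran between 1.56 RPM for *spp-4* and 50.9 RPM for *spp-5*.

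*spp-14*, also on chromosome X, has the vitellogenin gene *vit-1* as its next neighbour on the same strand. *vit-1*, which encodes a yolk protein, had 1.17, 3.15 and 1.73 RPM upon *unc-62* RNAi, against 212, 312 and 156 RPM in control RNAi (log2 fold change -6.86, adjusted p = 0.0107 by limma). The neighbouring genes thus had fold changes of opposite sign, and *spp-14* stood at 2166 RPM or more in every library. *spp-17* on chromosome I has *spp-23* as its next neighbour on the same strand, and *spp-23* had 78.4, 94.1 and 87.0 RPM upon *unc-62* RNAi, against 60.4, 42.1 and 72.1 RPM in control RNAi. The groups of *spp-23* did not overlap, and its log2 fold change was 0.57 (adjusted p = 0.417 by limma). *hlh-12* comes between *spp-10* and *spp-8* on chromosome IV and overlaps *spp-10* on the opposite strand. *spp-1* on chromosome III overlaps T07C4.3 on the opposite strand. The authors counted reads on the sense strand only, and left out reads that fit several places equally well, so related family members are measured by the bases that set them apart.

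Of the 16 further *spp* genes in the files 6 were tested, and none was called by limma, edgeR, DESeq2 or rank products. At an unadjusted p under 0.05 by limma 2 were higher upon *unc-62* RNAi, against 4.69% of tested genes. *spp-12*, *spp-16* and *spp-24* passed the filter on reads only through the *unc-62* RNAi group, which favours a fold change above 0. All 6 had log2 fold changes above 0, where 53.3% of all tested genes did, with a median of 0.85. They ran between 0.28 for *spp-15* and 2.18 for *spp-12* (95% interval -0.49 to 4.85, adjusted p = 0.479 by limma). *spp-24* had 18, 15 and 20 reads upon *unc-62* RNAi, against 4, 6 and 2 reads in control RNAi (log2 fold change 1.85, adjusted p = 0.227 by limma). The other 10 genes were below the filter, the highest of them, *spp-25* and *spp-20*, with up to 15 reads in a library.

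Genes that share a role with the caenopores were compared as groups. Lysozymes cut bacterial cell walls and, like caenopores, act in the gut lumen. Of 16 lysozyme genes 9 were tested, and limma and edgeR called none. At an unadjusted p under 0.05 by limma 3 were higher upon *unc-62* RNAi, against 4.69% of tested genes. The median log2 fold change was 0.65, beside 0.03 over all tested genes. Rank products and DESeq2 called *lys-8* and *ilys-4* as increased, where 0.914% and 1.39% of tested genes were. limma with no replicate block called *lys-8* (adjusted p = 0.0369), where 0.764% of tested genes were called as increased. *lys-8* had 112, 94.4 and 146 RPM upon *unc-62* RNAi, against 39.4, 31.1 and 21.9 RPM in control RNAi, a log2 fold change of 1.92 (adjusted p = 0.118 by limma). *ilys-4* had the highest fold change of the list at 2.53, from 1 to 55 reads per library, and *ilys-5* the lowest at -0.14. *ilys-4* passed the filter on reads only through the *unc-62* RNAi group.

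The *abf* genes, which encode other antibacterial peptides, were a list of 4. Of these 4 genes 2 were tested, none was called by limma, edgeR, DESeq2 or rank products, and 0 had an unadjusted p under 0.05 by limma. *abf-2*, which encodes a defensin-like peptide, had 46.8, 9.53 and 206 RPM upon *unc-62* RNAi, against 24.2, 9.94 and 2.66 RPM in control RNAi, overlapping between groups and highest in *unc-62* RNAi replicate 3 (log2 fold change 2.35, adjusted p = 0.547 by limma). The log2 fold change of *abf-6* was -0.39 (adjusted p = 0.659 by limma).

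Enzymes and membrane proteins of lysosomal lipid breakdown, the setting in which saposins act, formed another list. Of 14 genes 9 were tested, none was called by limma, edgeR, DESeq2 or rank products, and the median log2 fold change was 0.32. At an unadjusted p under 0.05 by limma 1 was higher, against 4.69% of tested genes. The highest was that of *asah-2*, a ceramidase gene, at 0.88 (adjusted p = 0.252 by limma), and the lowest that of *bgal-1*, a beta-galactosidase gene, at -0.19 (adjusted p = 0.837 by limma).

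Genes of pathways known to control caenopores and other gut defences were taken as further lists, and of these limma, edgeR and rank products called none. DESeq2 called *atf-7* alone, as lower, where it called 294 of the 7333 tested genes in either direction and 102 as increased. Over all 7333 tested genes 984 had an unadjusted p under 0.05 by limma in either direction, and 344 of these were increased. Of the DBL-1 pathway 6 of 9 genes were tested, 1 was lower at that p, and the list had a median log2 fold change of 0.06. The ligand gene *dbl-1* was the lowest of this list, with 7, 12 and 16 reads upon *unc-62* RNAi against 20, 21 and 38 reads in control RNAi (log2 fold change -1.27, adjusted p = 0.143 by limma), and the coreceptor gene *sma-10* the highest at 0.31. *dbl-1* passed the filter on reads only through the control RNAi group, which favours a fold change below 0. Of the p38 pathway 2 of 5 were tested, and *atf-7*, its transcription factor, had 45.8, 28.1 and 34.5 RPM upon *unc-62* RNAi, against 85.9, 59.6 and 83.3 RPM in control RNAi (log2 fold change -1.12, adjusted p = 0.12 by limma and 0.0169 by DESeq2). The other tested gene, the kinase gene *nsy-1*, was at -0.13. Of the insulin pathway 6 of 7 were tested and 1 was lower at an unadjusted p under 0.05 by limma. The receptor gene *daf-2* was lowest at -0.87 (adjusted p = 0.25 by limma) and the transcription factor gene *daf-16* highest at 0.05. Of 4 intestinal transcription factor genes all were tested and 0 had an unadjusted p under 0.05, with log2 fold changes between -0.33 for *elt-2* and 0.23 for *elt-7*.

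Markers of the intestine, where several caenopores are made, had a higher summed level upon *unc-62* RNAi. All 14 markers were measured and none was at 0 reads, and they summed to 10114 to 12438 RPM upon *unc-62* RNAi and 7559 to 8369 RPM in control RNAi. Of the 14, 11 had a log2 fold change above 0, where 53.3% of all tested genes did, with a median of 0.28. None was called by limma or edgeR, and 4 were higher at an unadjusted p under 0.05 by limma, against 4.69% of tested genes. *ges-1*, *ifb-2* and *pept-1* passed the filter on reads only through the *unc-62* RNAi group. DESeq2 called *asp-1* and *ftn-1* as increased (1.39% of tested genes), and rank products *asp-1* (0.914%). With no replicate block limma called *ftn-1* (adjusted p = 0.0722) and *asp-1* (adjusted p = 0.0942), where 0.764% of tested genes were called as increased. The metallothionein gene *mtl-2* and the protease genes *cpr-1* and *asp-1* made up most of this sum, while *elt-2*, the factor that defines the intestine, was at 1.05 RPM upon *unc-62* RNAi and 1.26 RPM in control RNAi. The part of this shift in the values of the saposin-like genes was not tested. Of the 8 markers of the hypodermis 5 were tested, with a median log2 fold change of -1.31. At an unadjusted p under 0.05 by limma 4 were lower, where 984 of the 7333 tested genes had such a p in either direction. *dpy-5* and *rol-6* were called by limma as lower upon *unc-62* RNAi, where 60 of the 7333 tested genes were called as decreased. The log2 fold change was -1.31 for *sqt-3*, -0.87 for *col-19* and 0.37 for *lin-26*. *dpy-5*, *rol-6* and *sqt-3* passed the filter on reads only through the control RNAi group, which favours a fold change below 0. The 8 markers summed to 203 to 363 RPM upon *unc-62* RNAi and 342 to 680.0 RPM in control RNAi, overlapping between groups. Most of this sum was *col-19*, with means of 251 RPM upon *unc-62* RNAi and 452 RPM in control RNAi. Summed markers of muscle, neurons and germline overlapped between groups, and limma, edgeR and rank products called none of their members. At an unadjusted p under 0.05 by limma, 3 of the 6 of muscle were lower upon *unc-62* RNAi (*myo-3* at -1.28, *unc-15* at -1.01 and *unc-54* at -0.81 on the log2 scale). At that p limma had 984 of the 7333 tested genes in either direction, and only 344 of these were increased. Of the other muscle markers *hlh-1* (0.13) and *pat-10* (0.10) were above 0 and *unc-27* (-0.34) was below. Of the 6 of germline and sperm 2 were lower at that p (*msp-3* at -1.36 and *msp-142* at -1.29). Both were called by DESeq2, which called 294 of the 7333 tested genes in either direction and 102 as increased. In that list 2 of the 6 had a log2 fold change above 0. Of the 3 tested of neurons 0 were lower at that p. The summed markers of the pharynx were lower upon *unc-62* RNAi (2.38 to 3.39 RPM against 3.77 to 5.79 RPM in control RNAi). Of the 3 tested, *myo-2* was called by limma as lower (adjusted p = 0.0957, and 0.143 with no replicate block). With the block 60 of the 7333 tested genes were called as decreased. *myo-2* had 2 to 8 reads per library upon *unc-62* RNAi. It thus passed the filter on reads only through the control RNAi group, which favours a fold change below 0. The other tested pharynx markers, *tnc-2* and *tni-4*, were at -0.05 and 0.03 on the log2 scale. No marker of any list was at 0 in all libraries.

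For the 3 genes of the list with the highest level in control RNAi, the tested genes outside the list with the most similar level over the 6 libraries were looked up by Pearson correlation of log2 RPM, as a description. Nearest to *spp-14* were Y45F10C.6 (r = 0.987), Y55B1BL.1 (0.986) and C38D4.7 (0.985), nearest to *spp-17* were W10G11.19 (0.991), T21H3.1 (0.987) and *asp-16* (0.986), and nearest to *spp-1* were *moa-2* (0.979), *dbd-2* (0.979) and *flp-33* (0.976). With 6 libraries such values are common, as 157 genes had r above 0.9 with *spp-14*, 111 with *spp-17* and 86 with *spp-1*. Some of the genes named had few reads. *asp-16* averaged 1.20 RPM upon *unc-62* RNAi and 0.0219 RPM in control RNAi, below the 0.05 added before taking logs. The group means of Y45F10C.6, Y55B1BL.1 and *flp-33* lay between 0.754 and 1.44 RPM.

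**Figure D4:**
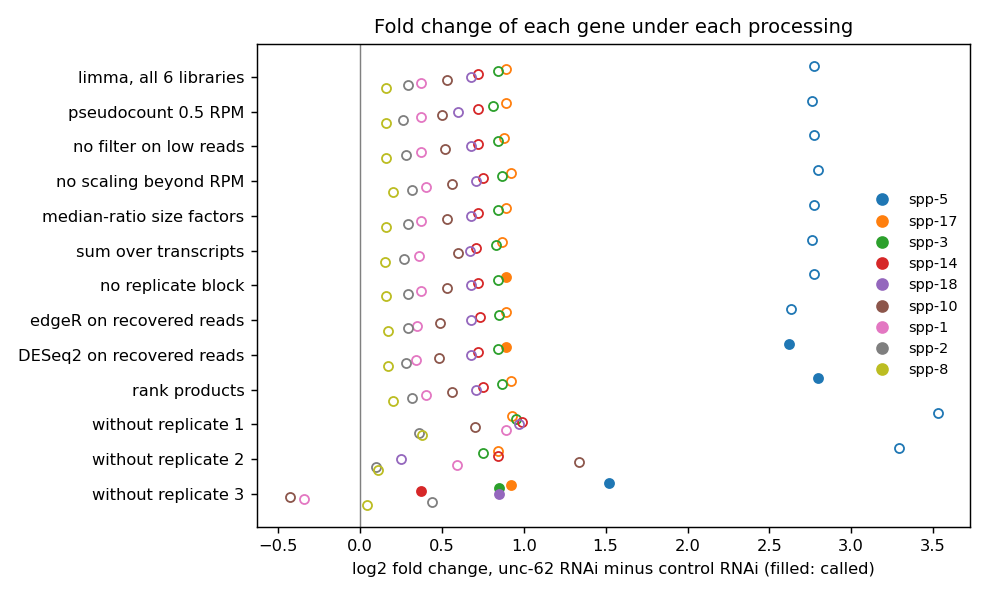
Log2 fold change (*unc-62* RNAi minus control RNAi, horizontal axis) of the 9 tested genes under each way of processing (rows), filled where the gene was called. Changes of pseudocount, filter and scaling leave every point on the same side of 0, while leaving out replicate 3 does not, with *spp-1* at -0.34 and *spp-10* at -0.43 without replicate 3.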

How the data were processed

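RNA-seq libraries of *unc-62* RNAi worms (3) and control RNAi worms (3) were analysed. The authors ran Bowtie 0.12.7 against WS215 with reads of 36 bases, kept uniquely mapped reads on the sense strand of transcripts, and deposited them as a signal, RPM, for 25531 transcripts. Multiplied by the uniquely mapped reads, 153186 of 153186 values (100.0%) came within 0.01 of a whole read. The transcript with the highest mean was kept for each gene. RPM was scaled by TMM factors over the tested genes (edgeR 4.0.16), and log2(RPM + 0.05) was fitted with limma 3.58.1 (R 4.3.3) with a variance trend and the replicate number as a block, at an adjusted p of 0.1 (Benjamini-Hochberg, two-sided). Fold changes on this scale understate the change of low genes.

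The design had assumed RPM, and the columns sum to 2160231.3 or more because transcripts share reads, so they are treated as a signal. edgeR, DESeq2 1.42.0 and rank products (10000 permutations, 10% false positives) were alternatives, as were other pseudocounts, filters, scalings, no block and left-out replicates. Models were tested on simulated data. The replicate block follows the study's fold changes within replicates. Deviations from group means correlated at 0.42, 0.20 and -0.18 for equal replicate numbers, so the values do not show that equal numbers share a batch. By the study's methods the worms of each batch were split over both treatments, but which libraries share a batch is not stated there or in the labels. Names come from the RefSeq table of WBcel235, matching 16959 of 17682 genes, and strand, neighbours and coding length from the annotation of that assembly. No read fell on the 2 identifiers without a gene. The 10 genes, the other gene lists and the markers were chosen with earlier results of these data known. From each list other than the markers the genes called and the extremes of fold change are named, with further genes chosen after their values were seen (*lys-8*, *spp-4*, *spp-12*, *spp-20*, *spp-23*, *spp-24*, *spp-25*, *vit-1*, the named markers and those beside *spp-5* in replicate 3). Promoter and protein sequences were not analysed here.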

Additional observations from a re-analysis of the deposited data

How the results depend on the processing

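Of 162 values of single genes under the alternatives, 148 kept their direction and their side of the threshold, 9 passed it and 5 changed sign. The changes of sign were *spp-1* at -0.34 and *spp-10* at -0.43 without replicate 3, *spp-1* at -0.10 and *spp-10* at -0.01 without control RNAi replicate 3 and no replicate block, and *spp-8* at -0.05 without *unc-62* RNAi replicate 3 and no replicate block, the last 2 settings chosen after seeing the data. Without replicates 1, 2 or 3 the log2 fold change lay between 1.52 and 3.53 for *spp-5*, 0.84 and 0.93 for *spp-17*, 0.75 and 0.95 for *spp-3*, 0.37 and 0.99 for *spp-14*, 0.25 and 0.97 for *spp-18*, -0.34 and 0.89 for *spp-1*, -0.43 and 1.34 for *spp-10*. The cause was not tested. Without replicate 3 *spp-3* (0.85), *spp-5* (1.52), *spp-14* (0.37), *spp-17* (0.92) and *spp-18* (0.85) were called.

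Fits with no replicate block, which treats equal numbers as unpaired, called *spp-17* (0.89) and 132 genes in all. DESeq2 called *spp-5* (2.62) and *spp-17* (0.89), and rank products *spp-5* (2.80). Members called thus numbered 1 with no replicate block, 2 by DESeq2, 1 by rank products and 0 to 5 with a replicate left out. Over all genes limma called 96, with 255 when genes with few reads were kept, 294 by DESeq2, 182 by rank products, and 0 to 1178 with a replicate left out (560 genes without replicate 1 and 595 without replicate 2 at an unadjusted p under 0.05). With a single library left out and no replicate block, limma called 112 genes without control replicate 1, 24 without control replicate 2, 30 without control replicate 3, 37 without *unc-62* RNAi replicate 1, 74 without *unc-62* RNAi replicate 2 and 61 without *unc-62* RNAi replicate 3, and 0 of the 9 in all of these. At an unadjusted p under 0.05 these fits had 2 to 4 of the 9 higher. Over the 7333 tested genes they had 570 to 872 in either direction, so these are no like share for the 2 to 4. In limma with the block and all 6 libraries 344 of 984 such genes were increased. Summed over transcripts, which counts shared reads more than once, the 10 genes took 1.26% of reads upon *unc-62* RNAi and 0.667% in control RNAi. With 0 to 2 reads per library *spp-9* was below the filter and was not tested. p-values of fits with the replicate block measure the spread of the differences within replicates, over 3 pairs of libraries when all are used. Those with no block measure the spread between the libraries of a group.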
